A study of Mus musculus with 2 samples.

Results

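The insulin-like growth factor family was described here through 9 genes: the ligands Igf1 and Igf2, the receptor Igf1r, and the binding proteins Igfbp2, Igfbp3, Igfbp4, Igfbp5, Igfbp6 and Igfbp7. They were found by gene symbol among the 32285 genes of each matrix, and all 9 were present. The 9 were chosen by levels already known from an earlier analysis of these same counts, so their levels and differences are given as a description. A cell was used if it held 1000 UMIs or more from 500 genes or more, with mitochondrial UMIs not above 20%, a UMI (unique molecular identifier) standing for 1 captured transcript. Counts were summed over the cells of each class, a class being a group of clusters carrying the same marker genes.

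The tumours came from KPPC mice, a genetically engineered model of pancreatic ductal adenocarcinoma. The labels give only the name of the model, which both groups share. One group received vehicle and the other takinib at 50 mg/kg for 14 days, starting from mice 6 weeks old; takinib inhibits the kinase TAK1, which acts upstream of NF-kappaB and AP-1. Each group is 1 library of dissociated tumour, and how many mice went into it is not stated in the labels, so no test was possible, no difference has a replicate check, and intervals in square brackets are 95% intervals of counting error only.

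IGF1 and IGF2 are secreted hormones that bind the receptor tyrosine kinase IGF1R, which signals through insulin receptor substrates to PI3K and AKT. The binding proteins hold the ligands outside the cell, prolong their life or keep them from the receptor, and are cut by proteases; IGFBP7 is a more distant relative with low affinity for the ligands. In pancreatic tumours, stromal cells such as fibroblasts and macrophages are known as sources of IGF ligands, while tumour cells carry the receptor.

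The libraries differed in more than treatment. The vehicle library gave 9558 kept cells with 42000538 UMIs and a median of 8.70% mitochondrial UMIs per cell, and the takinib library 25183 cells with 119726977 UMIs and a median of 1.79%. Median depth was 3556 and 2887 UMIs per cell, and 359 cell barcodes occurred in both. In vehicle, 1075 cells held Xist and no Y-linked UMI and 3087 held Y-linked UMIs and no Xist, whereas in takinib 14324 cells held Xist and 0 held a Y-linked UMI. The vehicle library thus held cells of both sexes. Treatment, library, software version, barcode filtering, mitochondrial share and sex of the animals cannot be told apart, and values are also given within the vehicle library by sex-linked transcripts where these differ.

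Named classes are called fibroblast-like and so on from their markers. A pair of clusters that hold much of the family's RNA did not meet the naming rule. Cluster 24 (134 vehicle and 244 takinib cells, led by Serpinb2, Dcn and Ptgis) scored highest for mesothelial and second for fibroblast markers. Cluster 8 (1134 and 707 cells, led by Ctrb1, Hmga2, Prss2 and Cdkn2a) scored highest for epithelial markers. Fibroblast-like cells numbered 560 and 102, with summed fibroblast markers at 40316 and 36369 CPM (the counts of a class scaled to a total of 1000000 within class and library).

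The promoters of Igf1, Igfbp3 and Igfbp4 are shown because in fibroblast-like cells these genes were respectively higher, lower and nearly level in takinib. The windows run from 250 bases before to 50 after the RefSeq start on GRCm38.p6, and lie at chr10:87860861-87861160 (plus strand), chr11:7213874-7214173 (minus strand) and chr11:99040994-99041293 (plus strand). Capitals mark matches on either strand to the TATA motif TATAAA, to the GC box GGGCGG, to the AP-1 motif TGANTCA or to the NF-kappaB motif.
Igf1: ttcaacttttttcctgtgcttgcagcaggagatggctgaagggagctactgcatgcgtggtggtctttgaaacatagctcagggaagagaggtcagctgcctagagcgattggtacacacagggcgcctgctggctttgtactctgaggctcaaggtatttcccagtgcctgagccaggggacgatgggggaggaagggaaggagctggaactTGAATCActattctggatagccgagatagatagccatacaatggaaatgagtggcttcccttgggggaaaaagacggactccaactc
Igfbp3: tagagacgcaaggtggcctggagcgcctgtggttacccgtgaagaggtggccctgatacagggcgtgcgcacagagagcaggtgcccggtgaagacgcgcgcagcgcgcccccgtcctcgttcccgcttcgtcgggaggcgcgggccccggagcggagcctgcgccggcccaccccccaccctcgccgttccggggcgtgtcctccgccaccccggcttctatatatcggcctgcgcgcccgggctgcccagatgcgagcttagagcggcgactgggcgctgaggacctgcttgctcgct
Igfbp4: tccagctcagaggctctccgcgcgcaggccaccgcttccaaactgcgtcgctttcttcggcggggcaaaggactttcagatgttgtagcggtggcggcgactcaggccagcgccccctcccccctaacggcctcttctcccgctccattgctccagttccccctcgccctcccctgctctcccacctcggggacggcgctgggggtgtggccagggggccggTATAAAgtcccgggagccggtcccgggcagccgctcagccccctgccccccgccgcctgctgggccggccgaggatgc
The Igf1 window held 1 AP-1 match, the Igfbp4 window 1 TATAAA match, and the Igfbp3 window no match to any of the 4 motifs. AP-1 matches occurred in 7.81% of 32851 mouse promoter windows of that length, NF-kappaB matches in 8.46%, TATAAA in 13.6% and GGGCGG in 35.7%. All 9 genes had a window in the RefSeq table, 13 windows in all. Among the others, Igfbp5 held 2 overlapping NF-kappaB matches, 1 of the 2 Igfbp2 windows held an AP-1 match, and Igfbp7 held 4 GGGCGG matches. A match is a run of letters and no evidence of binding.

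The genes lie at separate loci except for Igfbp2 and Igfbp5, which are neighbours on chromosome 1 on opposite strands with 5457 bases between their ends (GENCODE M21 on GRCm38). Igfbp2 spans 72824503 to 72852474 and Igfbp5 72857932 to 72874884. Igf1 (ENSMUSG00000020053) spans 87858265 to 87937042 on chromosome 10 and Igf2 (ENSMUSG00000048583) 142650766 to 142666816 on chromosome 7. Igf1 overlaps the antisense gene Igf1os, Igf2 overlaps Igf2os, and Igfbp7 on chromosome 5 overlaps Polr2b and Gm34648 on the other strand. Strand use in the counting is not given in the sources used here, so reads of these overlapping pairs are uncertain.

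By level in CPM, most of the family was highest in fibroblast-like cells among the named classes. Among named classes of at least 50 cells, 7 of the 9 genes had their highest level there in vehicle and 6 in takinib. The exceptions were Igf1r in both libraries, highest in neutrophil-like cells, and Igfbp7 in both, highest in endothelial-like cells. In takinib Igfbp3 stood at 521 CPM [469, 578] in endothelial-like and 517 CPM [459, 580] in fibroblast-like cells, which do not differ beyond counting error. In vehicle Igfbp5 was likewise level between fibroblast-like cells, at 104 CPM [90.8, 119], and perivascular-like cells, at 104 CPM. Unnamed cluster 24 stood above fibroblast-like cells in vehicle for Igfbp5, at 342 CPM, and for Igfbp6, at 963 CPM. Shares of UMIs, given next, ranked the cells otherwise for several genes.

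**Figure D1:**
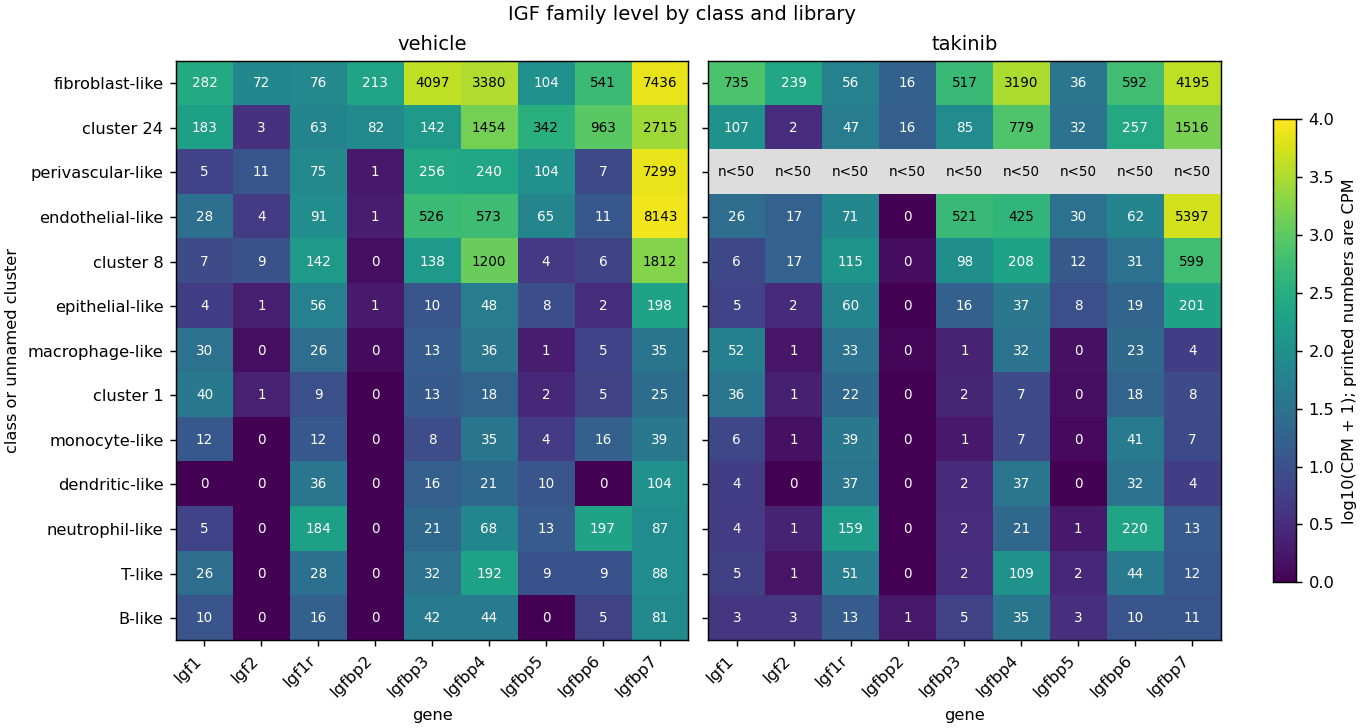
Level of each of the 9 genes in CPM (printed in each cell, colour on a log10 scale of CPM + 1) by class or unnamed cluster, vehicle on the left and takinib on the right; grey marks fewer than 50 cells. The binding proteins are brightest in the stromal rows at the top, while Igf1r and Igfbp6 also stand out in neutrophil-like cells, at 184 and 197 CPM in vehicle.

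Which cells held the RNA of each gene differed between the libraries. Fibroblast-like cells held 85.8% of the Igfbp2 UMIs, 73.9% of Igfbp3 and 57.1% of Igf2 in vehicle. In takinib, where they were 0.405% of the kept cells against 5.86%, they held 13.4%, 13.2% and 31.4%. Neutrophil-like cells, 49.0% of takinib cells and 2.85% of vehicle cells, held 65.8% of the Igfbp6 and 54.9% of the Igf1r UMIs in takinib, against 3.49% and 2.89% in vehicle. Cluster 8 held 43.1% of the Igf1r UMIs in vehicle and 10.7% in takinib. Over whole libraries Igfbp3 accordingly stood at 284 CPM in vehicle and 18.1 in takinib, Igfbp2 at 12.7 and 0.56, and Igfbp7 at 1559 and 166. Igfbp6 ran the other way, at 51.2 and 91.0 CPM, as did Igf1r, at 57.7 and 79.2. These whole-library values mix cell numbers with levels per cell, and the classes are therefore compared one by one below.

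**Figure D2:**
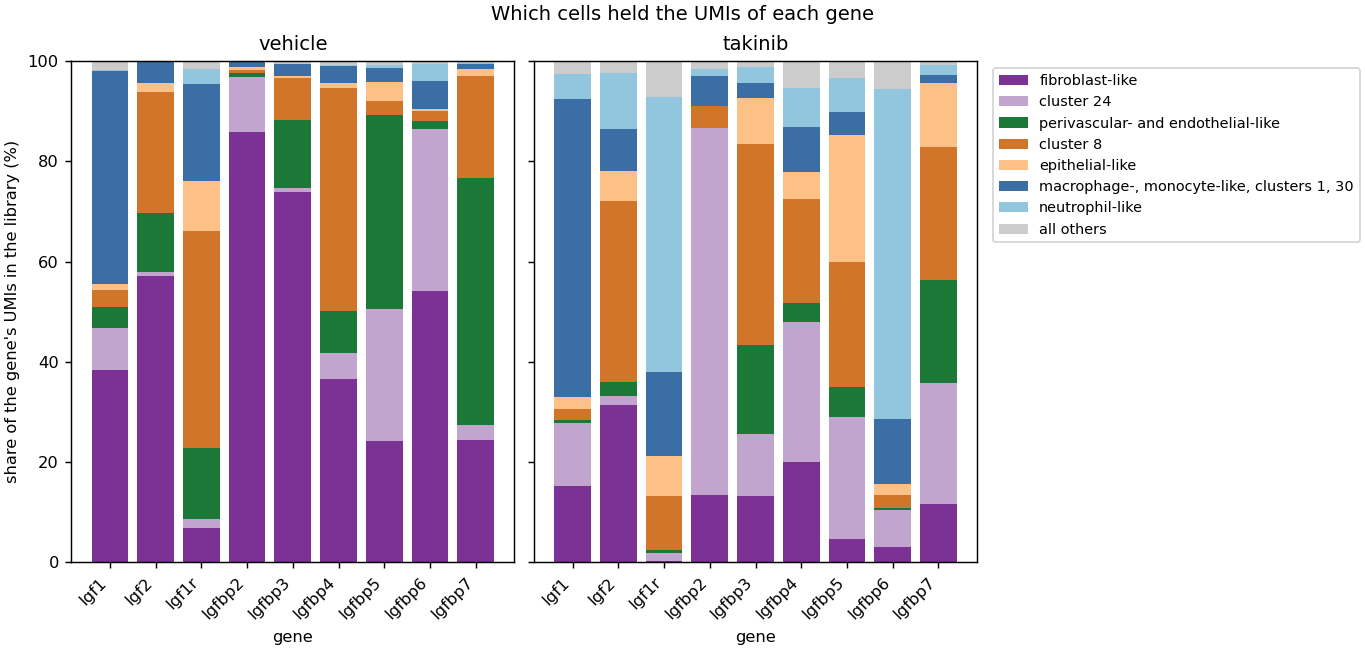
Share in percent of each gene's UMIs that came from each group of cells, vehicle on the left and takinib on the right. Fibroblast-like cells dominate Igfbp2 and Igfbp3 in vehicle, and in takinib neutrophil-like cells hold 65.8% of Igfbp6 and 54.9% of Igf1r.

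A difference was counted where 10 CPM were added to both levels and the log2 ratio, takinib over vehicle, passed 1 in size (2-fold) and a library had at least 50 counts. In the named classes 42 gene-and-class pairs had those counts: 7 were higher in takinib, 10 lower and 25 neither. Among all genes with 50 counts in those 7 classes, 2.07% to 5.03% by class were higher and 1.35% to 10.3% lower. In 4 unnamed clusters there were 22 such pairs, of which 1 was higher, 6 lower and 15 neither. Among all genes there, 0.994% to 7.22% by cluster were higher and 0.551% to 3.78% lower. The numbers of calls moved widely with the processing, as given at the end. Dendritic-like and B-like cells had no member with 50 counts.

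In fibroblast-like cells the ligands were higher in takinib and several binding proteins lower. Igf1 and Igf2 passed 2-fold upwards, Igfbp2, Igfbp3 and Igfbp5 downwards, and Igf1r, Igfbp4, Igfbp6 and Igfbp7 neither. Across all genes with 50 counts in these cells 2.11% were higher and 5.36% lower past 2-fold. The median log2 ratio was -0.39 over the 9 genes and -0.12 over all genes.

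Igf1, the ligand made under growth hormone in liver and locally by stromal cells, stood at 282 CPM [260, 306] in vehicle and 735 CPM [665, 809] in takinib, 2.60-fold higher [2.29, 2.95]. In takinib 5 of the 102 cells held 39.2% of its UMIs, and 1 cell held 51. With cells thinned to 1000 UMIs, 23.6% of vehicle and 32.4% of takinib fibroblast-like cells had an Igf1 UMI (44.1% and 62.7% unthinned), against 1.97% and 0.4% of thinned T-like cells, which should lack it (median depths 3153 and 3571 UMIs in fibroblast-like, 1425 and 1875 in T-like cells). The direction of Igf1 depended on which cells were counted as fibroblast-like. With cluster 24 added, a choice made after seeing the data, Igf1 stood at 257 CPM [239, 277] in vehicle and 201 CPM [187, 216] in takinib, and its log2 ratio was -0.34. It was -0.40 with doublets kept, -0.87 with each library clustered on its own and -0.62 with classes taken cell by cell without clusters, against 1.35 in the main classes.

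Igf2, the ligand of fetal growth, imprinted in the mouse and mostly silent after birth, stood at 72.4 CPM [61.5, 84.7] in vehicle and 239 CPM [200.5, 284] in takinib. Few cells carried it. In takinib 7 of 102 cells held its 133 UMIs, and the 5 highest held 98.5% of them; in vehicle 42 of 560 cells held 156 UMIs, and the 5 highest held 46.2%. Within the vehicle library Igf2 stood at 213 CPM [170, 264] in the 118 cells with Xist and no Y-linked UMI and at 7.83 CPM [3.15, 16.1] in the 175 cells with Y-linked UMIs and no Xist. The takinib level in cells with Xist, 236 CPM [197, 282], overlapped that of the vehicle cells with Xist. The log2 ratio of Igf2 also took the other sign with cluster 24 added, at -0.45. It did so too with doublets kept, with each library clustered on its own and with classes taken without clusters. H19, the non-coding RNA of the same imprinted locus, stood at 337 CPM in vehicle and 578 CPM in takinib.

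Igfbp3, the main carrier of IGFs in blood, was 7.93-fold lower in takinib [7.05, 8.95], at 4097 CPM [4012, 4183] in vehicle and 517 CPM in takinib. It was lower in takinib than in vehicle cells of either origin, which stood at 3293 CPM [3117, 3476] with Xist and 4791 CPM [4649, 4937] with Y-linked UMIs. The share of thinned cells with an Igfbp3 UMI was 58.8% [54.5, 62.9] in vehicle and 29.4% [20.8, 39.3] in takinib (70.9% and 43.1% unthinned); thinned T-like cells gave 3.94% and 0.32%. Igfbp3 was past 2-fold lower under every alternative run.

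Igfbp2, which binds both ligands with a preference for IGF2, was 13.1-fold lower [6.85, 28.9], with 458 UMIs in vehicle and 9 in takinib. The levels were 213 CPM [194, 233] and 16.2 CPM [7.41, 30.8]. Vehicle cells with Xist stood at 125 CPM [93.1, 165] and those with Y-linked UMIs at 237 CPM [206, 271], both above takinib. It too was past 2-fold lower under every alternative.

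Igfbp5, a binding protein that also attaches to extracellular matrix, stood at 104 CPM in vehicle and 36.0 CPM [22.0, 55.6] in takinib, 2.89-fold lower [1.83, 4.82]. Within vehicle it stood at 133 CPM [99.6, 174] in cells with Xist and 28 CPM [18.1, 41.3] in cells with Y-linked UMIs, so the takinib level overlapped the second group and lay below the first. All 20 takinib UMIs came from 5 cells. Igfbp5 and Igf2 thus differed between the origins of cells inside the vehicle library by more than they did between the libraries.

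Igfbp4, a binding protein that restrains IGF action until the protease PAPP-A cuts it, was nearly level at 3380 CPM [3303, 3458] and 3190 CPM [3044, 3342]. Igfbp6, which prefers IGF2, stood at 541 CPM [511, 573] and 592 CPM [530, 660], and Igf1r at 76.1 CPM [64.9, 88.7] and 55.8 CPM [37.9, 79.2]; for both the intervals overlap. Igfbp7 was 1.77-fold lower [1.70, 1.85], at 7436 CPM [7321, 7552] and 4195 CPM [4026, 4369], short of 2-fold. With cluster 24 added, Igfbp4, Igfbp6 and Igfbp7 passed 2-fold downwards, at log2 ratios of -1.34, -1.05 and -1.70. In fibroblast-like cells of takinib the neutrophil transcripts S100a8 and S100a9 summed to 7942 CPM, against 54.8 in vehicle, with all 9 neutrophil markers detected in both; their part in these ratios was not tested.

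**Figure D3:**
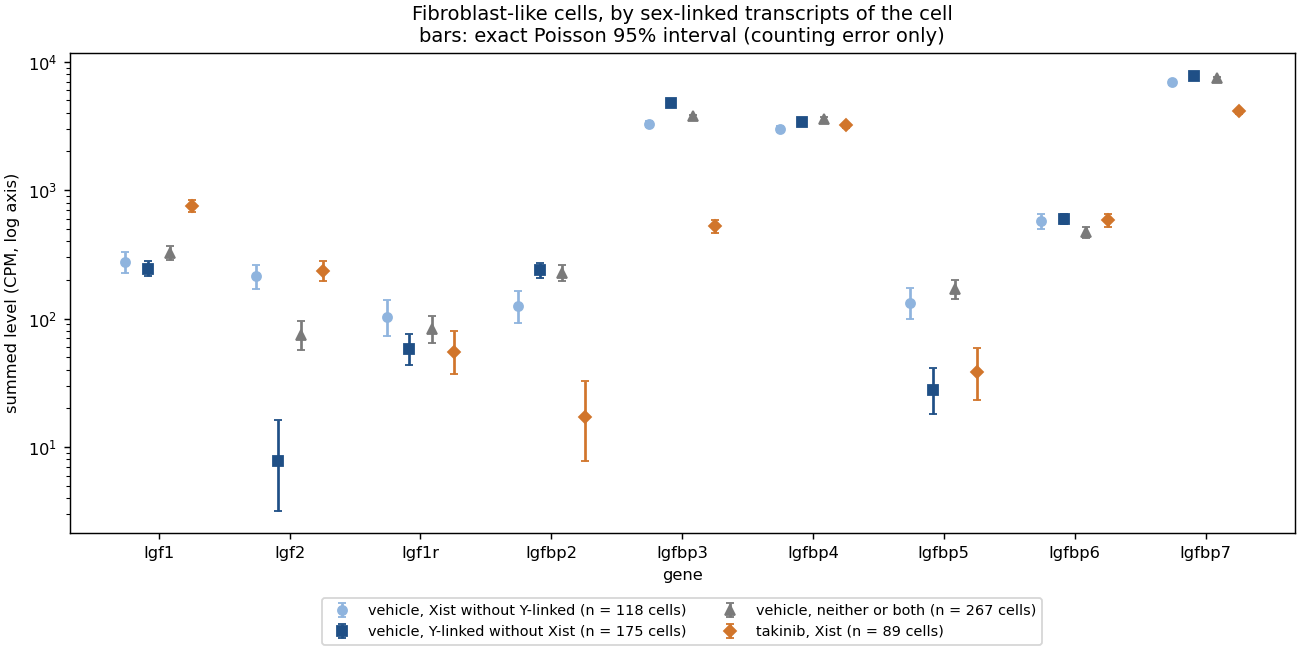
Level of each gene in fibroblast-like cells in CPM on a log axis, for vehicle cells split by sex-linked transcripts and for takinib cells with Xist; points are sums over cells and bars exact Poisson 95% intervals. Takinib lies below all vehicle points for Igfbp2, Igfbp3 and Igfbp7 and above them for Igf1, whereas for Igf2 it coincides with the vehicle cells holding Xist and for Igfbp5 with those holding Y-linked UMIs.

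A finer clustering (resolution 2) split the fibroblast-like cells into a pair of groups that differed in the family's genes. One, led by Col12a1, Sfrp1 and Cilp, held 440 vehicle and 59 takinib cells. The other, led by Dcn, Serpinb2 and Ptgis and higher in Cxcl12, held 120 and 43, so it made up 21.4% of vehicle and 42.2% of takinib fibroblast-like cells. These cells are part of a larger unnamed group at that resolution, of 254 vehicle and 293 takinib cells, which scored highest for mesothelial and second for fibroblast markers. The rest of it is cluster 24, with 134 and 244 cells, and the leading genes are those of the whole. The values that follow for the Dcn group cover its fibroblast-like cells. In the Col12a1 group Igfbp3 stood at 4886 CPM [4784, 4989] in vehicle and 1045 CPM [921, 1181] in takinib, and in the Dcn group at 150 CPM [113, 196] and 99.8 CPM [67.8, 142]. Igfbp3 was thus concentrated in the Col12a1 group in both libraries and differed between libraries inside it. Igfbp2 followed the same division, at 252 and 32.7 CPM in the Col12a1 group and 16.7 and 3.22 CPM in the Dcn group.

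Igf1 had the opposite preference, higher in the Dcn group. It stood at 607 CPM [529, 693] and 957 CPM [851, 1072] there and at 217 CPM [196, 240] and 453 CPM [373, 546] in the Col12a1 group, so takinib was higher inside each. Over the whole larger group, cluster 24 included, Igf1 was lower in takinib, at 325 CPM [291, 360] in vehicle and 181 CPM [167, 196] in takinib. Igf2 lay in the Col12a1 group, at 86.4 and 474 CPM, against 2.79 and 54.8 CPM in the Dcn group. Igfbp5 had its higher level in the Dcn group, at 262 CPM [212, 320] in vehicle and 61.2 CPM [36.8, 95.6] in takinib. In the Col12a1 group it stood at 72.4 CPM in vehicle and 4.08 CPM (1 UMI) in takinib. By UMIs in vehicle the larger Col12a1 group held more, 130 against 94. Igfbp4 differed little between the groups, at 3292 and 2948 CPM in the Col12a1 and 3819 and 3382 CPM in the Dcn group.

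Cluster 24 carried the same binding proteins at other proportions, and 3 of its 8 genes with 50 counts were past 2-fold lower in takinib and 0 higher, beside 3.78% lower and 5.53% higher among all genes there. Igfbp5 was 10.6-fold lower [8.36, 13.5], at 342 and 32.3 CPM, and in vehicle 5 cells held 68.7% of its 246 UMIs. Igfbp6 was 3.75-fold lower [3.38, 4.15], at 963 CPM [893, 1037] and 257 CPM [240, 275]. Igfbp2 was 5.28-fold lower [3.55, 7.88], at 82.0 and 15.5 CPM. Igf1, at 183 and 107 CPM, and Igfbp4, at 1454 and 779 CPM, were also lower but short of 2-fold. So were Igfbp7, at 2715 and 1516 CPM, and Igfbp3, at 142 and 84.6 CPM, while the Igf1r intervals overlapped, at 62.5 CPM [45.6, 83.7] and 47.2 CPM [39.9, 55.4]. Its summed mesothelial markers stood at 1549 CPM in vehicle and 550 CPM in takinib and its fibroblast markers at 15579 and 19152 CPM, so the makeup of the cluster differed between the libraries; the part of this in the ratios was not tested.

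In cluster 8, which as a whole scored highest for epithelial markers, Igfbp4 and Igfbp7 were past 2-fold lower in takinib and Igfbp6 past 2-fold higher. The other 5 of 8 genes with 50 counts were neither. Igfbp4 was 5.76-fold lower [5.48, 6.06], at 1200.0 CPM [1175, 1225] in vehicle and 208 CPM [199, 218] in takinib. Vehicle cells with Xist stood at 1545 CPM and those with Y-linked UMIs at 1209 CPM, both above takinib. The makeup of the cluster differed between the libraries, with summed acinar markers at 1161 CPM in vehicle and 4165 CPM in takinib, endocrine markers at 62.6 and 557 CPM and monocyte markers at 7178 and 2994 CPM. The finer clustering (resolution 2) split it mainly in 3. Of these only the group led by Cldn4 was named, as epithelial. The group led by Prl2c2 scored 0.228 for monocyte and 0.227 for epithelial markers. The group led by Ctrb1 scored highest for endocrine and second for acinar markers. Igfbp4 stood at 1885 CPM [1832, 1939] and 871 CPM [817.5, 927.5] in the cells led by Prl2c2, Tm4sf1 and Prl2c3 (213 vehicle and 74 takinib cells). It stood at 1049 CPM [1017, 1083] and 119 CPM [111, 127] in those led by Cldn4, Krt7 and Wfdc2 (540 and 496 cells), and at 136 CPM [116, 160] and 25.1 CPM [14.3, 40.7] in those led by Ctrb1, Prss2 and Ppy (376 and 132 cells). Igfbp4 was thus lower in takinib inside each, by amounts that differed. Igfbp7 was 3.02-fold lower [2.93, 3.12], at 1812 and 599 CPM. Igf1r stood at 142 CPM [134, 151] and 115 CPM [108, 123], and Igfbp3 at 138 and 98.5 CPM, neither past 2-fold. Igf2 stood at 8.98 and 17.3 CPM, and 5 cells of each library held 77.3% and 66.0% of its UMIs. Igfbp5 stood at 3.54 and 11.9 CPM and Igf1 at 7.07 and 6.45 CPM. Igfbp6 was past 2-fold higher, at 5.71 and 31.5 CPM. Among all genes of cluster 8, 2.95% were higher and 2.06% lower. Median depth was 4399 UMIs per cell in vehicle and 9205 in takinib; with cells thinned to 1000 UMIs, 38.3% of vehicle and 12.6% of takinib cells had an Igfbp4 UMI (60.1% and 40.6% unthinned), against 82.7% and 88.2% of fibroblast-like cells.

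Epithelial-like cells, which were led by stomach and intestinal genes such as Gkn3, Tff2 and Muc2, carried less of the family. Igf1r stood at 55.6 CPM [48.8, 63.1] and 60.1 CPM [55.9, 64.6], Igfbp7 at 198 and 201 CPM, Igfbp4 at 47.7 and 37.5 CPM, and none of these was past 2-fold. Igfbp3 stood at 9.92 and 15.9 CPM, Igfbp5 at 8.30 and 8.44 CPM and Igf1 at 4.38 and 5.29 CPM. Igfbp6 was the 1 of 7 genes past 2-fold, at 2.31 and 18.9 CPM, beside 3.06% higher and 1.40% lower among all genes. Cluster 8 thus held more Igf1r than epithelial-like cells in both libraries, by more than counting error.

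In endothelial-like cells 0 of 6 genes passed 2-fold, where 4.12% of all genes were higher and 6.53% lower. Igfbp7, known for its high level in tumour vessels, stood at 8143 CPM [8017, 8270] in 680 vehicle cells and 5397 CPM [5225, 5572] in 101 takinib cells. Igfbp3 was level at 526 CPM [494, 559] and 521 CPM, unlike in fibroblast-like cells, where it was 7.93-fold lower; the difference between these ratios was not tested. Igfbp4 stood at 573 and 425 CPM, Igf1r at 91.3 and 70.5 CPM, Igfbp5 at 64.9 and 30.2 CPM and Igf1 at 27.9 and 25.9 CPM. Perivascular-like cells held Igfbp7 at 7299 CPM [7187, 7412] and Igfbp5 at 104 CPM in 584 vehicle cells. Only 14 takinib cells were perivascular-like, with 349 Igfbp7 UMIs, and no ratio is given.

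**Figure D4:**
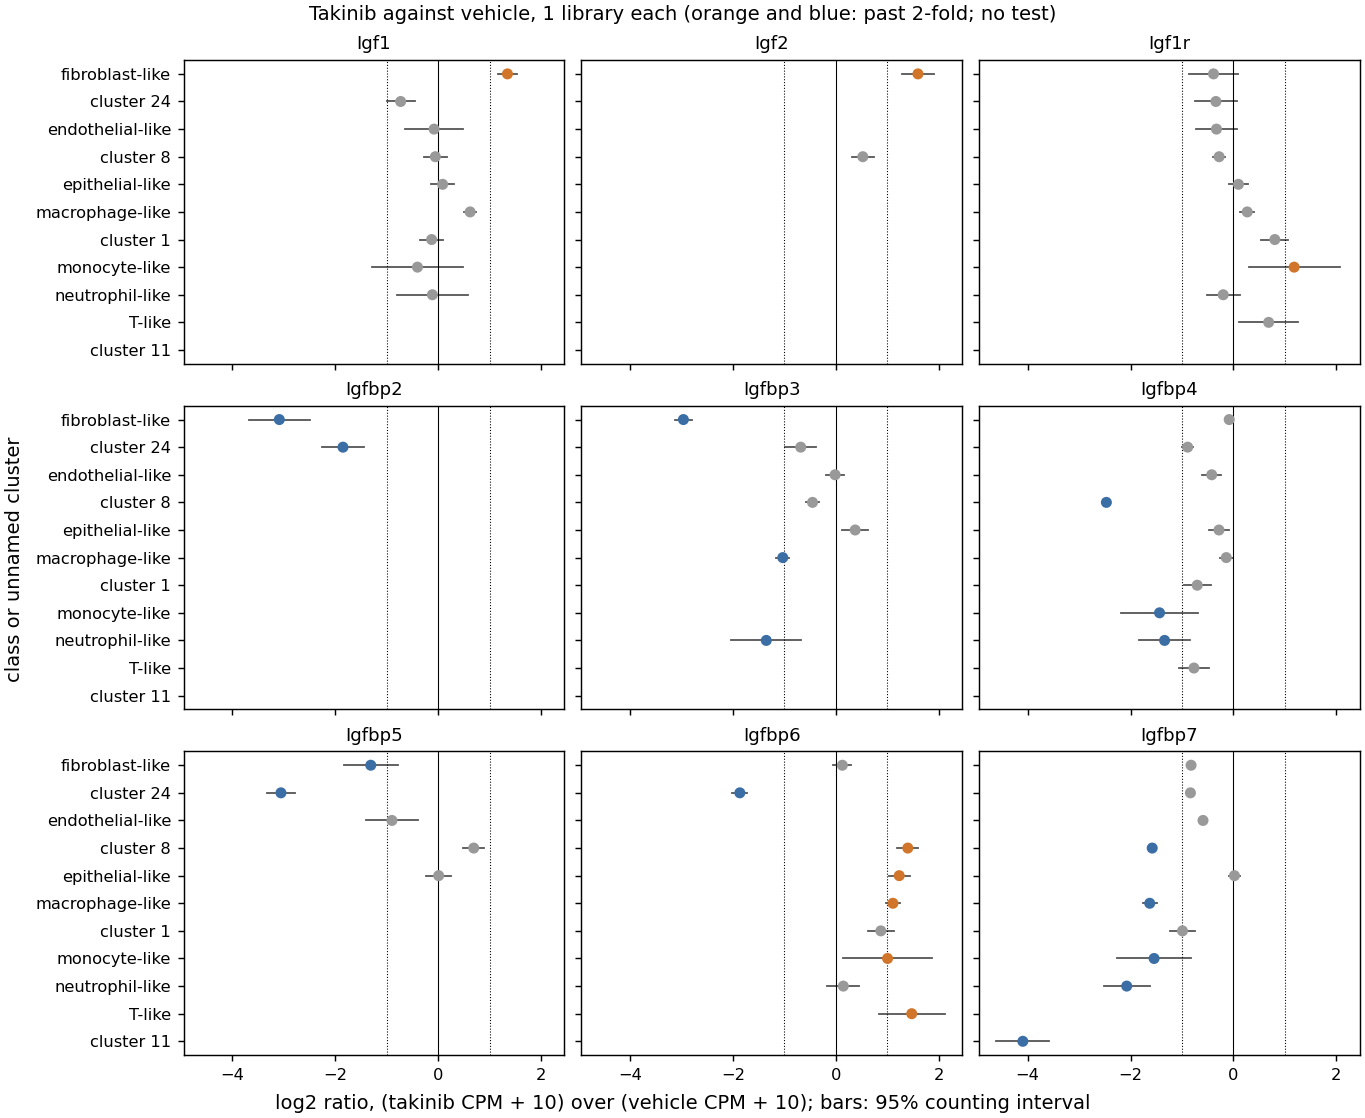
Log2 ratio of takinib over vehicle (CPM plus 10 in each) for each gene, by class or unnamed cluster with at least 50 counts in a library; bars are 95% counting intervals, dotted lines mark 2-fold, orange is past it upwards and blue downwards. Igfbp2, Igfbp3 and Igfbp5 lie to the left in fibroblast-like cells, Igfbp6 lies to the right in several classes and to the left in cluster 24, and Igf1r passes 2-fold in monocyte-like cells, where vehicle had 3 counts.

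Neutrophil-like cells carried Igf1r and Igfbp6 in both libraries. Igf1r stood at 184 CPM [144, 233] in 272 vehicle cells and 159 CPM [155, 164] in 12350 takinib cells, and Igfbp6 at 197 CPM [155, 248] and 220 CPM [215, 225]; the intervals overlap for both. In takinib Igfbp6 varied among neutrophil-like clusters, from 44.3 CPM [39.0, 50.2] in cluster 13, led by the granule-protein genes Camp, Ngp and Elane of neutrophil precursors, to 408 CPM [391, 425] in cluster 15, led by Ppy, Retnlg and Ins2. Igf1r ranged from 87.8 CPM [78.4, 98.1] in cluster 18 to 218.5 CPM [209, 229] in cluster 19. Compared inside cluster 15, the 1 neutrophil-like cluster with 50 cells in each library, Igfbp6 stood at 224 CPM [176, 280] in vehicle and 408 CPM in takinib, and Igf1r at 197 CPM [152, 251] and 192 CPM [180, 204]. Igfbp4 was present in cluster 13 at 75.2 CPM [68.1, 82.7] and at 7.34 to 13.2 CPM in the other takinib neutrophil-like clusters.

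Igfbp3, Igfbp4 and Igfbp7 were past 2-fold lower in takinib neutrophil-like cells, where 3.65% of all genes were higher and 10.3% lower. Igfbp7 stood at 86.9 and 13 CPM, Igfbp4 at 68.5 and 21 CPM and Igfbp3 at 21.1 and 2.17 CPM. Vehicle barcodes with fewer than 100 UMIs, which sample free RNA, held Igfbp7 at 849 CPM, Igfbp4 at 310 CPM and Igfbp3 at 189 CPM. All 3 genes were thus below the level of the free RNA in vehicle neutrophil-like cells; the part of free RNA in these ratios was not tested. The takinib matrix has no barcode under 500 UMIs, so its free RNA was not measured. Igf1 was at 5.27 CPM (2 counts) and 4.13 CPM in neutrophil-like cells and at 11.7 CPM (3 counts) and 6.44 CPM in monocyte-like cells.

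Levels were also low in other immune classes. In macrophage-like cells Igfbp7 stood at 34.8 and 4.49 CPM and Igfbp3 at 13.4 and 1.44 CPM, and both were counted as lower, beside 1.35% lower and 2.07% higher among all genes. In monocyte-like cells Igfbp4 stood at 35.1 and 6.65 CPM and Igfbp7 at 39.0 and 6.81 CPM, beside 3.88% lower and 5.03% higher. Different clusters held most of this class: 80 of its 98 vehicle cells were in cluster 9, led by Ms4a4c, Ccr2 and Vcan, and 2349 of its 2937 takinib cells in cluster 3, led by U90926, Ptges and Saa3, so every monocyte-like ratio compares largely different clusters. In cluster 11, which mixed B markers with the highest score for macrophage, Igfbp7 stood at 464 and 17.7 CPM, the 1 pair there, beside 2.19% lower and 7.22% higher. All of these vehicle levels were below the free-RNA level of the gene. In T-like cells Igfbp4 stood at 192 CPM and 109 CPM; its UMIs numbered 2.19 [1.54, 3.16] for each Igfbp7 UMI in vehicle and 9.28 [6.66, 13.3] in takinib, against 0.365 [0.309, 0.43] in free RNA. The same ratio in vehicle was 1.04 [0.925, 1.16] in macrophage-like and 0.788 [0.453, 1.36] in neutrophil-like cells, so all 3 classes held both genes in another proportion than the free RNA. It was 0.9 [0.324, 2.46] in monocyte-like cells, which overlaps the free RNA, and 0.0807 [0.0421, 0.142] in cluster 11, below it.

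Igf1 was the ligand of the macrophage lineage. In macrophage-like cells it stood at 30.4 CPM in 4063 vehicle cells and 52.2 CPM in 2463 takinib cells, 1.72-fold higher [1.54, 1.92] and short of 2-fold, against 21.5 CPM in vehicle free RNA. Levels differed among the clusters of the class, which the libraries held in different numbers. The part of this in the class ratio was not tested. Cluster 4, led by H2-Ab1, H2-Eb1 and Dcstamp, held 3731 of the vehicle and 253 of the takinib cells, and Igf1 there stood at 29.5 CPM [26.9, 32.4] and 21.3 CPM [14.3, 30.6]. Cluster 2, led by Ccl8, Pf4 and Cbr2, stood at 69.1 CPM [45.1, 101] and 44.1 CPM [40.0, 48.5], cluster 0, led by cell-cycle genes, at 15.1 and 19.1 CPM, and unnamed cluster 1, led by Chil3, Car4 and Ear2, at 40.1 CPM [33.9, 47.0] and 35.9 CPM [32.4, 39.7]. In each of these 4 clusters the intervals of the libraries overlapped, and Igf1 was not higher in takinib beyond counting error. Cluster 28, led by Ctsk, Gpnmb and Mmp12, held 570 takinib cells with Igf1 at 89.5 CPM [81.4, 98.2]. Unnamed cluster 30 (Vcam1, Cd5l and Slc40a1), with 116 takinib and 0 vehicle cells, had Igf1 at 293 CPM [249, 343]. It scored highest for macrophage and second for erythroid markers, which summed to 19505 and 40310 CPM, and haemoglobin genes were among its leading genes.

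**Figure D5:**
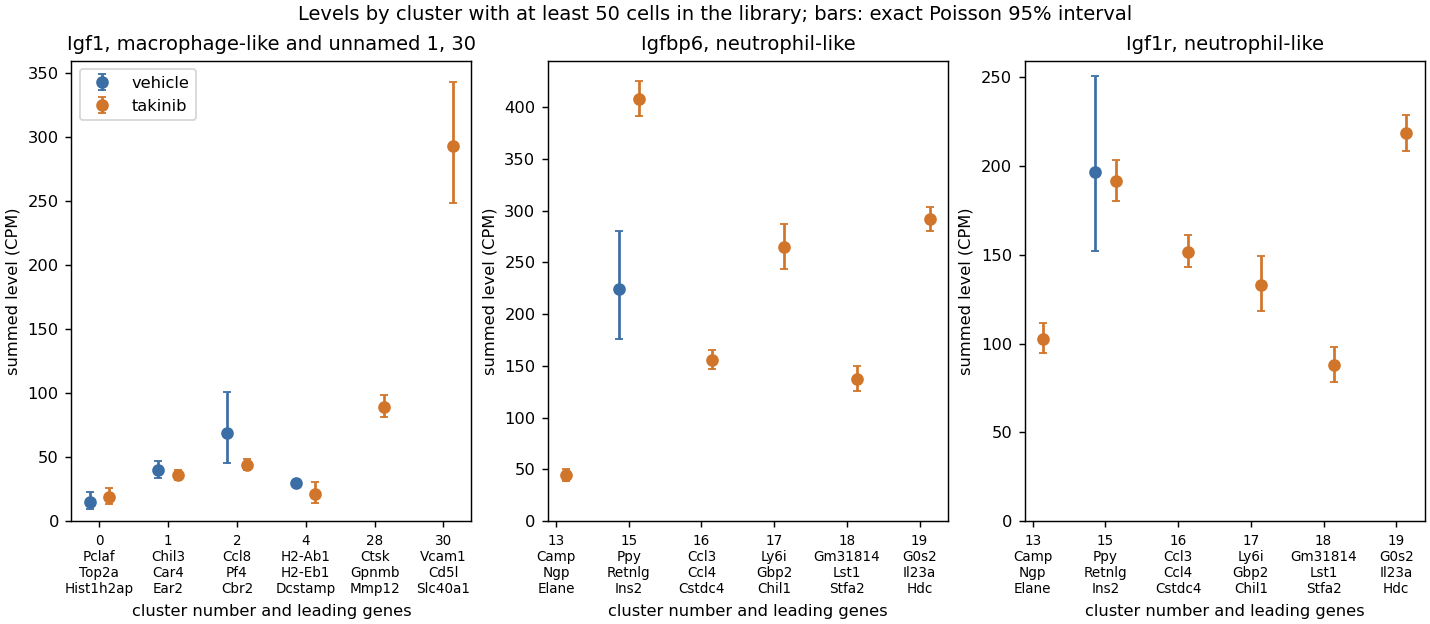
Level in CPM with exact Poisson 95% intervals by cluster (number and leading genes), for clusters with at least 50 cells in the library, vehicle in blue and takinib in orange: Igf1 in macrophage-like and related clusters, Igfbp6 and Igf1r in neutrophil-like clusters. Igf1 reaches 293 CPM in cluster 30, and Igfbp6 ranges from 44.3 to 408 CPM over the takinib clusters.

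Igfbp6 was past 2-fold higher in takinib in 4 named classes and in cluster 8. In macrophage-like cells it stood at 5.49 and 23.5 CPM, 4.27-fold higher [3.41, 5.40]; in T-like cells at 9.31 and 43.8 CPM, beside 4.68% higher and 1.43% lower among all genes; and in monocyte-like cells at 15.6 and 41.4 CPM from 4 and 779 counts. In epithelial-like cells the fold was 8.21 [4.39, 17.3]. The neutrophil transcripts S100a8 and S100a9 were also higher in takinib in these cells. They summed to 250.1 and 6335 CPM in macrophage-like cells of vehicle and takinib, to 473 and 16604 in T-like and to 3589 and 10680 in monocyte-like cells. In epithelial-like cells they summed to 97.1 and 7141 CPM and in cluster 8 to 97.2 and 11640. The whole list of 9 neutrophil markers summed to 118 to 4217 CPM in these 5 groups of cells in vehicle, with 1 marker at 0 in T-like cells, and to 7127 to 18141 CPM in takinib. The 2 transcripts were likewise higher where Igfbp6 was not. They summed to 224 and 9602 CPM in cluster 24, where Igfbp6 was lower, and to 54.8 and 7942 in fibroblast-like cells, where its intervals overlapped. Neutrophil-like cells themselves held Igfbp6 at 197 and 220 CPM; the part of such RNA in the Igfbp6 ratios was not tested. In endothelial-like cells Igfbp6 stood at 11.2 and 61.9 CPM, with 22 and 43 counts, and the 2 neutrophil transcripts at 450 and 24185 CPM.

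In the other immune cells Igf1r was low. It stood at 25.6 and 32.8 CPM in macrophage-like, 27.9 and 51.0 CPM in T-like and 8.55 and 22.4 CPM in cluster 1 cells, none past 2-fold; in cluster 1 0.994% of all genes were higher and 0.551% lower. The other members counted in cluster 1 were likewise short of 2-fold: Igfbp4 stood at 18.2 and 7.27 CPM, Igfbp6 at 5.07 and 17.7 CPM and Igfbp7 at 25.1 and 7.65 CPM. Igfbp4 in macrophage-like cells stood at 36.1 and 31.8 CPM. In monocyte-like cells Igf1r was called higher from 3 vehicle and 736 takinib counts, a ratio of 3.35 [1.14, 16.3].

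Among the other genes of the pathway, 232 gene-and-class pairs had 50 counts over the named classes. Of these 10 (4.31%) were past 2-fold higher and 9 (3.88%) lower, shares inside the range of all genes by class given above. The genes come from 5 lists of receptors and adaptors, other binding proteins and proteases, growth hormone axis, messenger RNA regulators and the PI3K-AKT arm. In fibroblast-like cells 1 of 7 measured receptor and adaptor genes was lower, Irs2, an insulin receptor substrate, at 40.9 and 10.8 CPM. Of 4 binding-protein and protease genes there, Htra1, a secreted serine protease that cuts binding proteins, was lower at 254 and 108 CPM and Adamts1, a matrix protease, higher at 38.1 and 112 CPM. Of 13 PI3K-AKT genes none was past 2-fold (median log2 ratio -0.36, against -0.12 over all genes).

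Igf2r, the receptor that takes up IGF2 for degradation and carries mannose-6-phosphate enzymes, was the receptor with the widest difference. In macrophage-like cells it stood at 5.66 CPM (97 counts) in vehicle and 60.8 CPM (1097 counts) in takinib, a log2 ratio of 2.18. It was higher inside cluster 4, at 4.56 CPM [3.55, 5.77] and 13.2 CPM [7.84, 20.9], cluster 2, at 18.6 CPM [7.48, 38.3] and 69.6 CPM [64.4, 75.1], cluster 0, at 8.62 CPM [4.45, 15.1] and 35.8 CPM [28, 45], and cluster 1, at 7.48 CPM [4.97, 10.8] and 19.5 CPM [17, 22.4]. So Igf2r, unlike Igf1, had higher takinib levels inside all 4 clusters, with no overlap of counting intervals. In fibroblast-like cells it stood at 88.2 and 104 CPM, in endothelial-like at 61.4 and 50.4 CPM and in epithelial-like at 63.2 and 48.5 CPM. In monocyte-like cells Igf2r was higher from 5 vehicle counts.

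Insr, the insulin receptor, stood at 521 CPM in vehicle and 216 CPM in takinib endothelial-like cells, where 2 of 6 receptor and adaptor genes were lower, the other being the docking protein gene Gab1 at 50.7 and 15.8 CPM. Eif4ebp1, the translation repressor controlled by mTOR, was higher in neutrophil-like (94.8 and 263 CPM), B-like (20.9 and 59.8), epithelial-like (41.5 and 99.8), cluster 8 (70.1 and 154) and cluster 24 cells (68.1 and 206). Among all genes of B-like cells 5.25% were higher and 1.26% lower, and the B-like value rests on 8 vehicle counts. It was the 1 higher gene of 19 PI3K-AKT genes in neutrophil-like cells, where Rps6kb1 was lower at 60.5 and 24.9 CPM. Cish, a feedback inhibitor of STAT5 signalling, was lower in macrophage-like (46.5 and 17.2 CPM) and neutrophil-like cells (205 and 61.1 CPM), and its relative Socs2 in cluster 8 (135 and 46.7 CPM) and cluster 24 (59.7 and 22.8 CPM).

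Klk1, a secreted kallikrein, was lower in epithelial-like cells (214 and 4.50 CPM) and higher in cluster 8 (3.67 and 31.6 CPM), and Igf2bp3, an RNA-binding protein of fetal and tumour cells, was higher in cluster 8 (2.31 and 14.7 CPM). In cluster 24 Jak2, the kinase of the growth hormone receptor, was higher (40.3 and 95.1 CPM) and Pik3r1, a PI3K regulatory subunit, lower (104 and 30.4 CPM). In neutrophil-like cells the adaptor gene Shc1 was lower (50.0 and 18.9 CPM). Pik3cb, Rptor and Htra1 were higher in monocyte-like cells, and these calls rest on 2, 0 and 0 vehicle counts.

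Genes with a pattern most like each member were sought over 21 sums of at least 50 cells, by Pearson correlation of log2(CPM + 10); the sums share libraries, so the coefficients are descriptions. Igfbp3 was most like Timp3 (r = 0.99), an inhibitor of matrix proteases, and Igfbp2 most like Lrrc15 (r = 0.99), a fibroblast surface protein. Igf2 was most like Tnxb (r = 0.99), followed by Hhipl1 and the imprinted gene Cdkn1c (both r = 0.98), and Igf1 most like Gdf10 (r = 0.91). Igfbp6 was most like Pi16 (r = 0.94), Igfbp4 most like F2r (r = 0.97), and Igfbp5 and Igfbp7 both most like Serpinh1 (r = 0.96 and 0.97), a collagen chaperone. Igf1r had no close match, the highest being Rab6a (r = 0.86). The next in order were C1ra and Kng2 for Igf1, Mpp5 and Nudt4 for Igf1r, Wnt2 and Tnfrsf19 for Igfbp2, and Col15a1 and Dpysl3 for Igfbp3. They were Prickle1 and Timp3 for Igfbp4, Unc5b and Tgfb1i1 for Igfbp5, Hsd11b1 and Gpc3 for Igfbp6, and Hspg2 and Ppic for Igfbp7.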

How the data were processed

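Single-cell RNA was measured in 2 libraries of KPPC pancreatic tumour, 1 vehicle and 1 takinib. The authors deposited unnormalized UMI counts of every gene in each barcode, made with Cell Ranger 4 (vehicle) and 6.1.1 (takinib), per the file headers; the submitters' processing notes name Cell Ranger 2.1.1 and mm10. The takinib barcodes held at least 500 UMIs each, the vehicle barcodes were unfiltered, and both were filtered alike here. Doublets were called with scrublet in scanpy 1.11.5: 314 vehicle cells were removed, and in takinib, where the caller marked 1 cell, the 6% with the highest scores (1607). Both libraries were clustered together (2000 variable genes without the family or its pathway lists, 30 components, 15 neighbours, Leiden resolution 1, seed 1), with no correction between them. Clusters were named from 18 marker lists. A name needed 3 markers in at least 10% of cells, no second class scoring 0.75 of the best, and leading genes that did not go against it.

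Members, gene lists and naming rule were chosen with earlier results of these data known. All 9 members are named; pathway genes are named where past 2-fold, at most 5 per list and class. One pathway gene counted among the calls is not reported here by name. The 3 genes most like each member were taken among genes with at least 200 counts that reached 50 CPM in a sum. CPM intervals are exact Poisson, shares exact Clopper-Pearson and folds exact conditional intervals. The log2 ratio with 10 CPM added understates changes of low genes. The ratio was tested on simulated data. UMI counts are not scaled to length, so levels are compared within a gene. Alternatives covered cell filters, thinning, pseudocounts, doublets, scaling, clustering, naming, vehicle cell origin and the count minimum; counting cluster 24 as fibroblast-like was chosen after seeing the data. Of the 32285 gene identifiers 32158 were in GENCODE M21 (GRCm38), used for positions; promoter sequences are RefSeq's on GRCm38.p6.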

Additional observations from a re-analysis of the deposited data

Results flagged for a closer look

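Igfbp6 was singled out because its ratios pointed in opposite directions in different cells. The log2 ratio of takinib over vehicle was 1.11 in macrophage-like, 1.01 in monocyte-like, 1.48 in T-like and 1.23 in epithelial-like cells and 1.40 in cluster 8, but -1.87 in cluster 24, with 1 library per group in each. The difference between these ratios was not tested.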

How the results depend on the processing

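No paired analysis was possible because each group has 1 library. The 17 ratios past 2-fold in named classes were recomputed under 15 alternatives, which gave 207 values: 174 stayed past 2-fold in the same direction, 24 kept the direction but not the size and 9 took the other direction. Those 9 were Igf1 in fibroblast-like cells with doublets kept (-0.40), libraries clustered separately (-0.87), classes without clusters (-0.62) and cluster 24 counted as fibroblast-like (-0.34), Igf2 in the same cells and order (-0.44, -0.32, -0.36 and -0.45), and Igf1r in monocyte-like cells without clusters (-0.040). The cause was not tested. Counting cluster 24 as fibroblast-like adds 134 vehicle cells, with Igf1 at 183 and Igf2 at 2.78 CPM, to 560. It adds 244 takinib cells, with Igf1 at 107 and Igf2 at 2.22 CPM, to 102.

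Members past 2-fold numbered 7 higher and 10 lower of 42 pairs. The number of pairs and the share over all genes are not given here for each alternative. The counts that follow therefore cannot be told apart from a shift of all genes or of the classes compared. Higher counts were 4 with thinned cells, 2 with a pseudocount of 50 CPM, 4 with doublets kept, 3 with libraries clustered separately and 3 with vehicle cells holding Xist. Lower counts were 5 at 2000 UMIs and 1000 genes, 4 at the 10% mitochondrial limit, 6 with thinned cells, 3 with a pseudocount of 50 CPM, 17 with libraries clustered separately, 41 without clusters, 4 with vehicle cells holding Xist and 5 with those holding Y-linked UMIs. Pathway pairs numbered 10 higher and 9 lower. Higher counts were 6 at the stricter depth, 2 at the 10% limit, 21 and 1 with pseudocounts of 1 and 50 CPM, 5 with doublets kept, 5 with libraries clustered separately and 4 with vehicle cells holding Xist. Lower counts were 23 and 3 with those pseudocounts, 14 with libraries clustered separately, 22 without clusters and 2 with vehicle cells holding Xist. The number of members highest in fibroblast-like cells ranged from 5 to 8 in vehicle and 4 to 7 in takinib. Depth limits monocyte-like cells, with 98 vehicle cells, and fibroblast-like and endothelial-like cells, with 102 and 101 takinib cells.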
